A study of Mus musculus with 45 samples.

Results

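The genes Bdh1, Oxct1 and Acat1 encode the enzymes by which a cell outside the liver takes ketone bodies apart for energy. They were chosen by gene symbol as a set of 3 among the 18193 genes measured on the arrays, and all 3 were found. Of several probe sets, that with the highest mean across the 45 arrays was read: 1452257_at for Bdh1, 1449059_a_at for Oxct1 and 1424183_at for Acat1. Ketone bodies, chiefly β-hydroxybutyrate and acetoacetate, are made by the liver from fatty acids during fasting and suckling and are carried by the blood to heart, brain and muscle. In the mitochondria of those tissues BDH1 (β-hydroxybutyrate dehydrogenase) oxidises β-hydroxybutyrate to acetoacetate, OXCT1 (succinyl-CoA:3-ketoacid CoA transferase, also called SCOT) loads acetoacetate with CoA taken from succinyl-CoA, and ACAT1 (mitochondrial acetoacetyl-CoA thiolase) splits the product into acetyl-CoA for the citric acid cycle. BDH1 and ACAT1 also act in the liver in the opposite direction, and ACAT1 has a further role in the breakdown of isoleucine. OXCT1 is scarce in hepatocytes, which therefore export ketone bodies.

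RNA was taken from R1 mouse embryonic stem cells (ESC) and from wild-type CD1 mice at 8 stages of heart development; the labels name no treatment. The 15 groups of 3 arrays were ESC, whole embryos of embryonic day 7.5 (E7.5), E8.5 heart tubes, and 12 groups of ventricles, with left and right on arrays of their own. The ventricles came from E9.5 embryos, from E12.5 and E14.5 embryos, from fetuses at E18.5, from newborns of 3 days (called day 3) and from adults. The replicates were described as biological; each pooled 30 to 50 embryos or hearts through E9.5, 10 to 20 at E12.5 and E14.5 and 3 to 5 at E18.5, while a newborn or adult replicate was a single heart. The steps up to E9.5 compare different material (a cell line, an embryo, a heart tube, a ventricle), so stage and material cannot be told apart there. The labels state for newborn and adult hearts alone that they were pulverised after freezing. Handling, pooling and stage therefore cannot be told apart between E18.5 and day 3, nor between E9.5 and the adult.

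Levels are log2 values after robust multi-array averaging (RMA), in which 1 unit is a 2-fold difference; the median of all values was 5.41. The levels of different probe sets were not compared with each other, since their probes differ in brightness. Changes between stages were tested with limma on 3 values per stage, both ventricles with the same number having been averaged, and are given with the SE of the fit and a p-value adjusted over all 18193 genes (Benjamini-Hochberg). A gene was called at an adjusted p under 0.05. Heart muscle was present where the labels name heart: the mean of 12 cardiomyocyte markers was 12.86 to 14.10 on all arrays from E8.5 on, against 5.70 to 5.97 in ESC and E7.5 embryos. Side, chamber and stage were not checked by this mean. On 6 arrays the mean level of genes of some other tissue lay over 1.5 units above the other replicates of the group. These were E7.5 replicate 2 (erythroid genes), E8.5 replicate 2 (visceral endoderm and hepatocyte genes), 3 fetal ventricles with hepatocyte genes (E14.5 left replicate 2, E14.5 right replicate 1 and E18.5 left replicate 2) and adult right ventricle replicate 3 (atrial genes). Changes of the 3 genes that rest on them are given with and without these 6 arrays. Where 1 ventricle of a number was left out, the other stood alone for that number, so the balance of left and right changed too. Arrays were marked against their own group alone, so genes of another tissue shared by all replicates of a group were not marked. Fewer cells of a type and less RNA per cell cannot be told apart in these bulk samples.

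The 3 genes followed different courses. Bdh1 was low in the newborn ventricle and high in the adult, Oxct1 was lowest in the heart tube and highest in the adult, with a small fall between E18.5 and day 3, and Acat1 rose before birth and had its highest group means at day 3. Over the 6 stages with ventricles each gene changed by limma's F-test, as did 80.4% of all genes (adjusted p = 3.6e-19 for Bdh1, 1.0e-16 for Oxct1 and 7.1e-15 for Acat1). The plot of levels by array shows the 3 courses side by side.

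**Figure D1:**
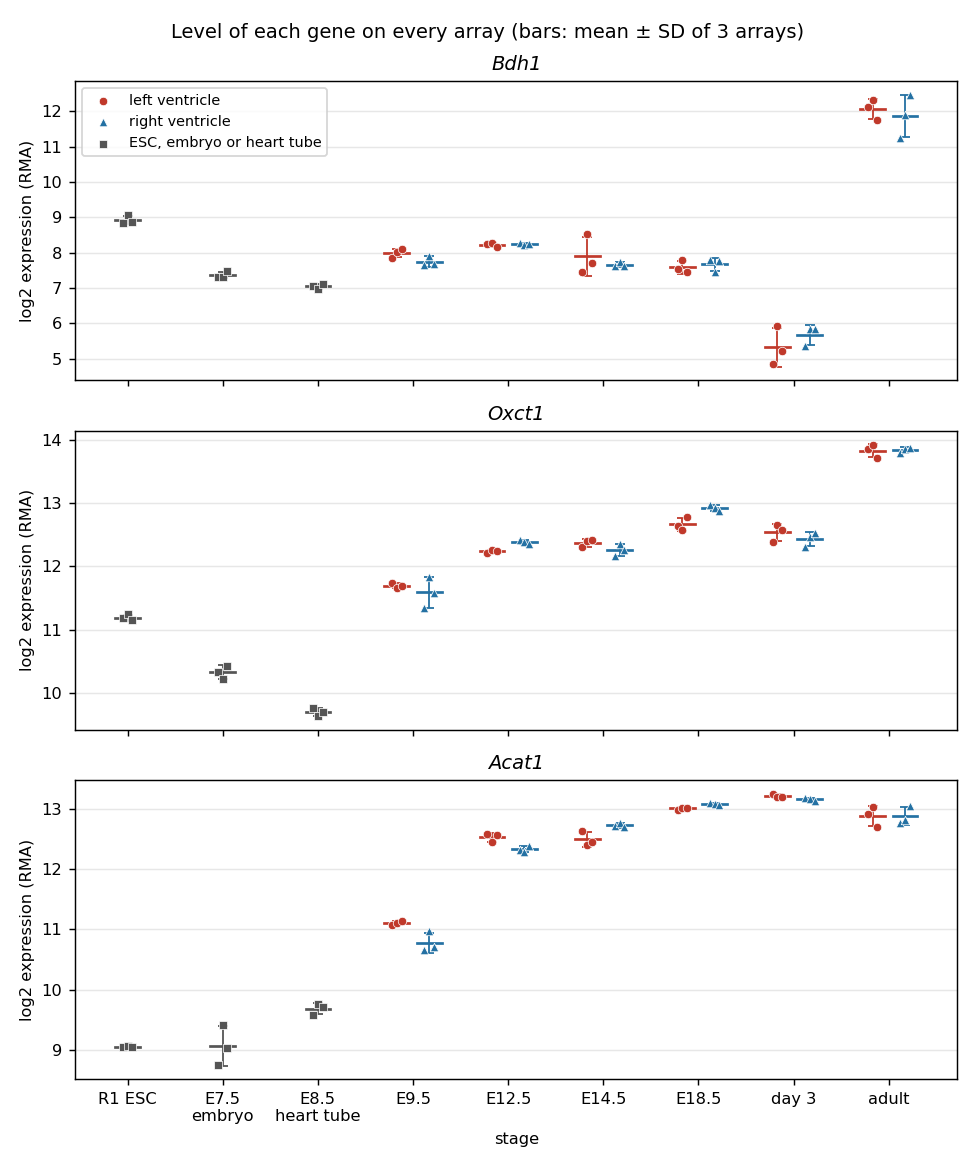
Log2 RMA level of Bdh1, Oxct1 and Acat1 on each of 45 arrays by stage, with left ventricles as circles, right ventricles as triangles and other material as squares; bars give the mean ± SD of 3 arrays. All 6 adult Bdh1 values lay between 11.25 and 12.46, above the 6 values of day 3, which lay between 4.84 and 5.92.

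Bdh1 has the largest range of the 3. Its RefSeq start sites and that of Oxct1, the other gene that rose between day 3 and the adult, are shown here. The promoters at hand held none for Acat1. The windows of 300 bases run from 250 bases before to 50 bases after each start in RefSeq (GRCm38.p6) and are written 5′ to 3′ on the plus strand, with CpG dinucleotides in capitals.
Bdh1 chr16:31422047-31422346: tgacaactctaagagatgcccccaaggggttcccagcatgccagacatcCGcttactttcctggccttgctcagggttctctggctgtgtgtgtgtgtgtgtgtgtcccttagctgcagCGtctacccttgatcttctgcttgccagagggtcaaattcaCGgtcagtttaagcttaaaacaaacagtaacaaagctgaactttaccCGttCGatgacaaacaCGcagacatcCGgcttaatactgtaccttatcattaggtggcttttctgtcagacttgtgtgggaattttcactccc
Bdh1 chr16:31428503-31428802: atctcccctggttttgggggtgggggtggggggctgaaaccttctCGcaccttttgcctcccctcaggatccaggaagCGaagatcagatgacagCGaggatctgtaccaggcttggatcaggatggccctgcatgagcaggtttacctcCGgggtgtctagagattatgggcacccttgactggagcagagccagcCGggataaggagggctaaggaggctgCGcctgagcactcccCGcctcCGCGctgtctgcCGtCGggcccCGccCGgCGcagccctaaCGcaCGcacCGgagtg
Oxct1 chr15:4026178-4026477: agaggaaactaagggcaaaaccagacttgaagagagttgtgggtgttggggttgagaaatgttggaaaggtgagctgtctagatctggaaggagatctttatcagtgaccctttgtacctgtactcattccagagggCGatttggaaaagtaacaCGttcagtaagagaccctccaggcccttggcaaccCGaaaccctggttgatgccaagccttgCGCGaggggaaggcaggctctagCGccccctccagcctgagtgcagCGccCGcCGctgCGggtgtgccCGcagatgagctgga
The upstream Bdh1 window held 7 CpG and 48.3% G or C, the downstream one 17 CpG and 63.7%, and that of Oxct1 11 CpG and 55.3%, against a median of 7 CpG over 32851 promoters of the same length. The letters AGGTCA, the core letters read by nuclear receptors such as PPARs and estrogen-related receptors, were in 16.3% of all promoters on either strand. The longer forms AAGGTCA and TCAAGGTCA and the PPAR element DR1 (AGGTCA repeated after 1 base), each of which contains AGGTCA, were in 4.72%, 0.423% and 0.04%. None of these letters was in the 3 windows.

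Bdh1 stood at 8.85, 9.06 and 8.88 in the 3 ESC samples, at 7.32, 7.31 and 7.48 in E7.5 embryos and at 7.06, 6.98 and 7.12 in E8.5 heart tubes. At E9.5 it was 7.86, 8.02 and 8.1 in left and 7.65, 7.92 and 7.68 in right ventricles. At E12.5 it was 8.26, 8.27 and 8.16 in left and 8.27, 8.23 and 8.26 in right ventricles. All values from E7.5 to E12.5 lay below those of ESC. At E14.5 it was 7.44, 8.53 and 7.71 in left and 7.62, 7.74 and 7.62 in right ventricles. At E18.5 it was 7.53, 7.80 and 7.44 in left and 7.79, 7.46 and 7.77 in right ventricles. The value of 8.53 stood apart from the other E14.5 values and came from left replicate 2, where the mean of 12 hepatocyte genes was 8.57, against 4.98 to 7.42 on the other E14.5 arrays. At day 3 Bdh1 was 4.84, 5.92 and 5.21 in left and 5.35, 5.83 and 5.85 in right ventricles, the lowest values of the series and close to the median of all values. In the adult it was 12.13, 12.31 and 11.76 in left and 11.25, 11.91 and 12.46 in right ventricles. No adult value overlapped any other stage.

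Between day 3 and the adult Bdh1 rose by 6.47 ± 0.15 on the log2 scale (SE, n = 3 per stage, limma adjusted p = 2.3e-20), the third in size of 18193 fitted changes. Detection calls were not used, so whether Bdh1 at day 3 lay above background is not known, and no fold is given for changes from or to that stage. The stage means were 11.97 ± 0.24 in the adult and 5.50 ± 0.39 at day 3 (SD, n = 3). Of all genes 48.8% were called in this step, 22.3% as higher and 26.4% as lower (45.8% of the called genes were higher, or 71.1% after scaling each array to housekeeping genes), and all 3 members were called, Bdh1 and Oxct1 as higher and Acat1 as lower. The change of Bdh1 was 6.74 in left ventricles alone and 6.20 in right ventricles alone, and 6.35 without the 6 arrays with genes of another tissue. The second probe set of Bdh1, 1426959_at, was also higher in the adult (limma adjusted p = 2.7e-20), with group means of 10.77 in left and 10.46 in right ventricles of the adult, against 3.48 in left and 3.41 in right ventricles of day 3. Since those day 3 means lay below the median of all values, 5.41, no size is given for its rise. Adult ventricles were also 17.1-fold higher than E9.5 ventricles for Bdh1 (4.10 ± 0.15, limma adjusted p = 2.9e-17, and 3.98 without the 6 arrays), a comparison in which 74.6% of genes were called, 41.6% as higher and 32.9% as lower. Of the called genes 55.8% were higher, or 72.9% after the housekeeping scaling, which moved every change by 0.20 in the first comparison and by 0.37 in the second.

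The newborn ventricle had less Bdh1 than the late fetal one. The stage means were 5.50 ± 0.39 at day 3 and 7.63 ± 0.03 at E18.5 (SD, n = 3), and the 6 values of the 2 stages did not overlap. Bdh1 fell by 2.13 ± 0.15 (SE, n = 3 per stage, limma adjusted p = 5.1e-10), a change that ranked 26 in size among all genes. In this step 20.2% of genes were called, 9.94% as higher and 10.3% as lower, and 2 of the 3 members were called, Bdh1 and Oxct1, both as lower. The second Bdh1 probe set was also lower at day 3 (limma adjusted p = 2.2e-07). Its group means were 5.03 in left and 5.18 in right ventricles at E18.5, against 3.48 and 3.41 at day 3. All of these lay below the median of all values, 5.41, so no size is given for its fall. Of 12 hepatocyte genes 7 also fell between E18.5 and day 3, and the mean of the list was 4.60 to 4.75 on the day 3 arrays, against 4.65 to 9.91 on the E18.5 arrays. Falls were also called for 4 of 9 atrial, 4 of 11 lymphoid and thymus, 3 of 10 lung and airway, 3 of 11 neural and 3 of 13 skeletal muscle genes. The part of these lists in the fall of Bdh1 was not tested. Without the 6 arrays with genes of another tissue, 1 of them from E18.5, the fall was 2.08 (limma adjusted p = 5.8e-10), and the change was -2.27 in left and -2.0 in right ventricles alone.

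Earlier changes of Bdh1 were smaller. It fell by 1.56 ± 0.15 in E7.5 embryos relative to ESC (limma adjusted p = 6.2e-09, 49.4% of genes called) and rose by 0.82 ± 0.15 in E9.5 ventricles relative to E8.5 heart tubes (limma adjusted p = 2.4e-04, 26.9% of genes called). Between E8.5 and E7.5 (-0.31 ± 0.15, limma adjusted p = 0.092, 48.6% of genes called), E12.5 and E9.5 (0.37 ± 0.15, limma adjusted p = 0.058, 38.1% called) and E18.5 and E14.5 (-0.15 ± 0.15, limma adjusted p = 0.53, 30.6% called) it did not pass the test. The difference between E12.5 and E9.5 was called in 8 of 11 other settings. Among them was the replicate number as a block (0.37, limma adjusted p = 0.029), though the sample titles tie no number across stages. Over the 11 settings the limma adjusted p ran from 0.0022 to 0.47. At E14.5 it was lower than at E12.5 by 0.46 ± 0.15 on the log2 scale (limma adjusted p = 0.044, 13.3% called), but this call was lost in left ventricles alone (-0.33, limma adjusted p = 0.45), in the second probe set (-0.38, limma adjusted p = 0.15) and in 19 of 45 fits that left out a single array (limma adjusted p up to 0.31, without E14.5 right replicate 2, at -0.33). Without these 6 arrays the difference was -0.62 (limma adjusted p = 0.0040), and the changes at E7.5, E8.5, E9.5 and E18.5 were -1.54, -0.30, 0.78 and -0.04, on the same side of the threshold as with them. Ranked by level, the 15 groups ran from day 3 through E8.5, E7.5, the ventricles of E18.5, E14.5 and E9.5, E12.5 and ESC to the adult. From E7.5 embryos to left ventricles of E9.5, neighbours in this order overlapped in their arrays, as did left and right at E12.5, day 3 and the adult.

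**Figure D2:**
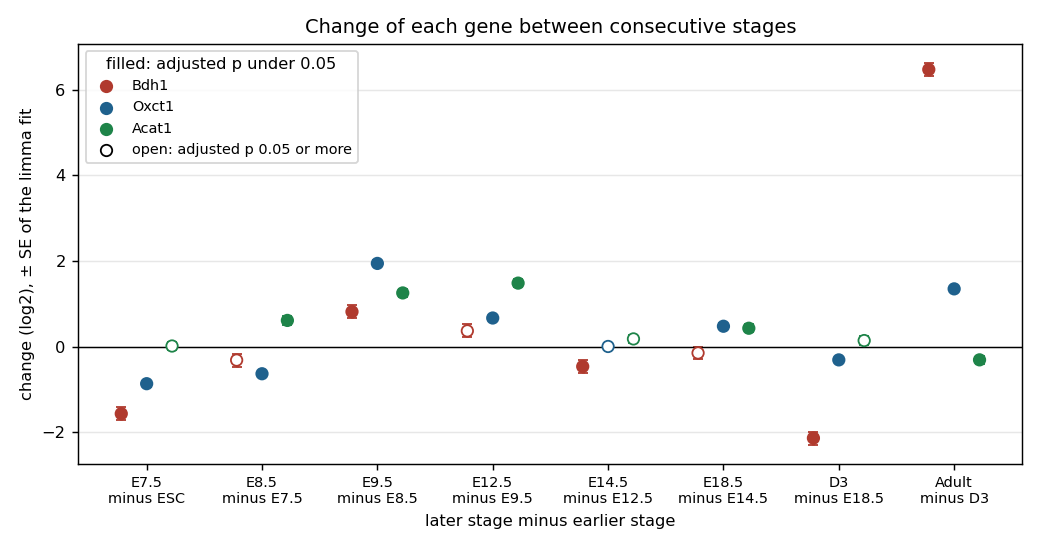
Change of each gene between consecutive stages (log2, later stage minus earlier stage, ± SE of the limma fit on 3 values per stage); filled points had an adjusted p under 0.05. The points farthest from 0 are those of Bdh1, with -2.13 between day 3 and E18.5 and 6.47 between the adult and day 3.

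Oxct1 encodes the enzyme of the step that commits acetoacetate to oxidation. It stood at 11.18, 11.24 and 11.15 in ESC, at 10.33, 10.22 and 10.43 in E7.5 embryos and at 9.76, 9.63 and 9.70 in E8.5 heart tubes. At E9.5 it was 11.73, 11.66 and 11.69 in left and 11.34, 11.83 and 11.59 in right ventricles. The ventricles of E9.5 thus lay above all 3 earlier groups. At E12.5 it was 12.21, 12.26 and 12.24 in left and 12.41, 12.39 and 12.36 in right ventricles. At E14.5 it was 12.30, 12.41 and 12.41 in left and 12.16, 12.35 and 12.25 in right ventricles. At E18.5 it was 12.63, 12.58 and 12.78 in left and 12.97, 12.92 and 12.87 in right ventricles. Levels at E12.5 and E14.5 overlapped, and all 6 values of E18.5 stood above both. At day 3 it was 12.39, 12.66 and 12.57 in left and 12.30, 12.46 and 12.53 in right ventricles. In the adult it was 13.86, 13.91 and 13.72 in left and 13.79, 13.85 and 13.88 in right ventricles. The adult values lay above all others, and those of day 3 overlapped with E12.5, E14.5 and the left ventricles of E18.5. In the order of the 15 group means, neighbours from left ventricles of E12.5 to left ventricles of E18.5 overlapped, and so did left and right at E9.5 and in the adult.

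Oxct1 fell by 0.86 ± 0.07 in E7.5 embryos relative to ESC (SE, n = 3 per stage, limma adjusted p = 3.7e-10) and by 0.63 ± 0.07 in heart tubes relative to E7.5 embryos (limma adjusted p = 8.0e-08). It then rose by 1.94 ± 0.07, or 3.85-fold, in E9.5 ventricles relative to heart tubes (limma adjusted p = 7.8e-15), a change that ranked 115 in size among all genes. Further rises followed at E12.5 (0.67 ± 0.07 over E9.5, limma adjusted p = 8.0e-08) and at E18.5 (0.48 ± 0.07 over E14.5, limma adjusted p = 1.5e-05), with a difference of 0.01 ± 0.07 between E14.5 and E12.5 (limma adjusted p = 0.98). In the adult it was 2.55-fold higher than at day 3 (1.35 ± 0.07, limma adjusted p = 1.1e-13). All 4 probe sets of Oxct1 rose between day 3 and the adult, by 1.11 to 1.59 on the log2 scale. Adult ventricles exceeded E9.5 ventricles by 2.20 ± 0.07, or 4.58-fold (limma adjusted p = 2.3e-18). The changes of Oxct1 without the 6 arrays with genes of another tissue were -0.81 at E7.5, -0.65 at E8.5, 1.91 at E9.5, 0.02 at E14.5, 0.52 at E18.5, 1.32 in the adult relative to day 3 and 2.17 relative to E9.5, with no call lost or gained.

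The fall of Oxct1 around birth was small and depended on the probe set. The stage means were 12.48 ± 0.12 at day 3 and 12.79 ± 0.04 at E18.5 (SD, n = 3), a fall by 0.31 ± 0.07 (SE, limma adjusted p = 0.0030). The probe set 1428140_at fell by 0.41 (limma adjusted p = 0.0019), whereas 1436750_a_at and 1455804_x_at differed by 0.22 and 0.02 (limma adjusted p = 0.25 and 0.89). In right ventricles alone the fall was 0.49 (limma adjusted p = 9.1e-04), and in left ventricles alone the difference was -0.12 (limma adjusted p = 0.34). Without the 6 arrays it was -0.36 (limma adjusted p = 8.2e-04).

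**Figure D3:**
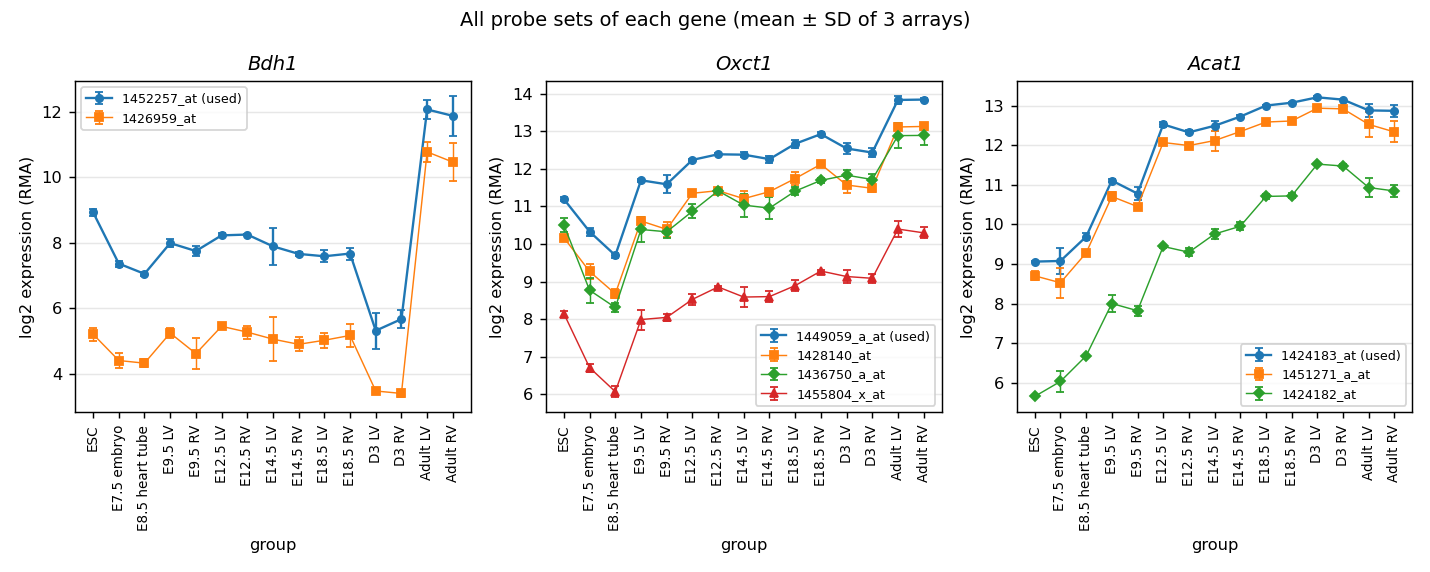
Mean log2 RMA level ± SD of 3 arrays in each of 15 groups for every probe set of Bdh1, Oxct1 and Acat1, with the probe set used in the text marked. Both Bdh1 probe sets have their minimum at day 3 and their maximum in the adult, while of the 4 Oxct1 probe sets only 1449059_a_at and 1428140_at lie lower at day 3 than at E18.5 in both ventricles.

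Acat1, the thiolase at the end of the pathway, rose before birth, and its adult values lay within the range of those at E14.5 to day 3. It stood at 9.05, 9.08 and 9.05 in ESC, at 8.76, 9.42 and 9.05 in E7.5 embryos and at 9.59, 9.76 and 9.71 in heart tubes. At E9.5 it was 11.08, 11.11 and 11.15 in left and 10.65, 10.97 and 10.72 in right ventricles, so that left lay above right. At E12.5 it was 12.58, 12.45 and 12.56 in left and 12.31, 12.29 and 12.38 in right ventricles, again without overlap. At E14.5 it was 12.64, 12.40 and 12.44 in left and 12.71, 12.77 and 12.70 in right ventricles, and here right lay above left. At E18.5 it was 12.98, 13.02 and 13.01 in left and 13.10, 13.07 and 13.06 in right ventricles. At day 3 it was 13.25, 13.20 and 13.19 in left and 13.18, 13.16 and 13.13 in right ventricles, the highest group means of the series. In the adult it was 12.91, 13.03 and 12.70 in left and 12.76, 12.81 and 13.04 in right ventricles, which overlapped with E14.5 and E18.5. In the order of the 15 group means, ESC overlapped with E7.5 embryos, and neighbours from right ventricles of E14.5 through the adult to left ventricles of E18.5 overlapped, as did the left ventricles of E14.5 and E12.5.

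Acat1 rose by 0.61 ± 0.10 in heart tubes relative to E7.5 embryos (SE, n = 3 per stage, limma adjusted p = 1.6e-05), by 1.26 ± 0.10 in E9.5 ventricles relative to heart tubes (limma adjusted p = 1.7e-09) and by 1.48 ± 0.10, or 2.80-fold, between E12.5 and E9.5 (limma adjusted p = 5.4e-11). A rise of 0.43 ± 0.10 followed between E18.5 and E14.5 (limma adjusted p = 0.0017). The differences between E7.5 and ESC (0.02 ± 0.10, limma adjusted p = 0.91) and between E14.5 and E12.5 (0.18 ± 0.10, limma adjusted p = 0.27) did not pass the test. Between E14.5 and E12.5, however, Acat1 was called in right ventricles alone (0.40, limma adjusted p = 0.018), without the 6 arrays with genes of another tissue (0.23, limma adjusted p = 0.0495), in the mean of its probe sets (0.29, limma adjusted p = 0.041) and in 1424182_at (0.49, limma adjusted p = 7.1e-04), and in left ventricles alone it was -0.03 (limma adjusted p = 0.92). At day 3 the mean was 13.18 ± 0.03, against 13.04 ± 0.01 at E18.5 (SD, n = 3), a difference of 0.14 ± 0.10 (SE, limma adjusted p = 0.35). The other probe sets, 1451271_a_at and 1424182_at, rose in this step by 0.33 and 0.79 (limma adjusted p = 0.044 and 9.4e-07).

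In the adult Acat1 averaged 12.88 ± 0.04, against 13.18 ± 0.03 at day 3 (SD, n = 3). This fall by 0.31 ± 0.10 (SE, limma adjusted p = 0.013) was seen in all 3 probe sets, by 0.50 in 1451271_a_at and by 0.61 in 1424182_at. After scaling to the housekeeping genes, of which 9 of 16 were themselves called lower in the adult, the difference was -0.11 (limma adjusted p = 0.31). Adult ventricles exceeded E9.5 ventricles by 1.93 ± 0.10, or 3.82-fold (limma adjusted p = 1.6e-14). The changes of Acat1 without the 6 arrays with genes of another tissue were -0.16 at E7.5, 0.75 at E8.5, 1.29 at E9.5, 0.39 at E18.5, 0.13 at day 3, -0.36 in the adult relative to day 3 and 1.88 relative to E9.5. The sign at E7.5 turned, and E7.5 and day 3 again did not pass the test (limma adjusted p = 0.15 and 0.25).

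The 3 genes changed by unequal amounts around birth, tested as differences of log2 changes in the same limma fit. Between day 3 and E18.5 the change of Bdh1 was below that of Oxct1 (-1.83 ± 0.12 units, limma adjusted p = 2.4e-10) and below that of Acat1 (-2.28 ± 0.18, limma adjusted p = 2.7e-09). The change of Oxct1 was also below that of Acat1 (-0.45 ± 0.13, limma adjusted p = 0.012). Between the adult and day 3 Bdh1 exceeded Oxct1 by 5.12 ± 0.12 and Acat1 by 6.78 ± 0.18, and Oxct1 exceeded Acat1 by 1.66 ± 0.13 (limma adjusted p = 3.2e-20, 1.8e-19 and 9.5e-11). The differences that hold Bdh1 at day 3 share the limit given above for its level at that stage. Between E9.5 and the heart tube Oxct1 rose more than Bdh1 (difference Bdh1 minus Oxct1 -1.13 ± 0.12, limma adjusted p = 2.5e-07) and more than Acat1 (difference Oxct1 minus Acat1 0.69 ± 0.13, limma adjusted p = 2.0e-04). Between E12.5 and E9.5 Acat1 rose more than both (difference Bdh1 minus Acat1 -1.12 ± 0.18 and Oxct1 minus Acat1 -0.81 ± 0.13, limma adjusted p = 2.0e-05 and 1.4e-05). From E9.5 to the adult the changes of Oxct1 and Acat1 differed by 0.26 ± 0.13 (limma adjusted p = 0.063), while Bdh1 exceeded them by 1.90 ± 0.12 and 2.16 ± 0.18 (limma adjusted p = 1.1e-12 and 1.0e-10). Without the 6 arrays with genes of another tissue the differences were -1.71, -2.21 and -0.50 between day 3 and E18.5, 5.03, 6.72 and 1.69 between the adult and day 3, and 1.81, 2.11 and 0.29 between the adult and E9.5 (Bdh1 minus Oxct1, Bdh1 minus Acat1 and Oxct1 minus Acat1). The last of these was then called (limma adjusted p = 0.0017). Without them the differences between E9.5 and the heart tube were -1.13 for Bdh1 minus Oxct1 and 0.62 for Oxct1 minus Acat1. These differences were not fitted with other probe sets. From E9.5 to the adult the Acat1 sets 1424182_at and 1451271_a_at rose by 2.98 and 1.85, against 2.20 to 2.62 in the Oxct1 sets. The order of Oxct1 and Acat1 over that span thus depended on the probe set. Between day 3 and E18.5 the Oxct1 set 1436750_a_at differed by 0.22, above the 0.14 of the Acat1 set used. The steps share samples, since each stage enters the step before and the step after it.

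Left and right ventricles were compared in a limma fit of all 45 arrays as 15 groups. None of the 3 genes passed the test at any stage or in the mean of 6 stages, and none did with left and right of a number as pairs. At E12.5 Oxct1 was lower in left than in right ventricles in all 3 pairs, without overlap (-0.15, limma adjusted p = 0.78 with and without the pairs). The share of all genes whose left and right arrays did not overlap was not counted, here or for the other stages. Of all genes 3.5% were called at E9.5, 1.26% at E12.5, 8.51% at E14.5, 4.95% at E18.5, 0.0055% at day 3, 0.0165% in the adult and 2.97% in the mean. These shares depended on single arrays, since leaving out each array in turn gave 445 to 2148 genes at E14.5, 165 to 2754 at E18.5 and 3 to 98 in the adult, against 1548, 900 and 3 with all arrays. The smallest adjusted p-value was that of Acat1 at E9.5, where left exceeded right by 0.33 ± 0.10 (SE, n = 3 per group, limma adjusted p = 0.070), and this call was made without these 6 arrays (limma adjusted p = 0.015). Oxct1 at E18.5 was lower in left than in right ventricles (-0.26 ± 0.09, limma adjusted p = 0.084), with 12.63, 12.58 and 12.78 in left ventricles, all below the 12.97, 12.92 and 12.87 in right ventricles. The hepatocyte list mean was 6.67 to 9.91 on these left and 4.65 to 5.91 on these right arrays. The lung and airway and the lymphoid and thymus lists were also higher on every left array, and the atrial list was lower. Of these left arrays only replicate 2 is among the 6 arrays left out. The part of these lists in this difference was not tested. Without the 6 arrays left minus right at E14.5, E18.5 and in the adult was -0.19, -0.08 and 0.10 for Acat1, 0.06, -0.22 and 0.01 for Oxct1 and -0.11, -0.19 and 0.49 for Bdh1, and none of these was called. With all arrays the differences of Bdh1 lay between -0.35 and 0.24 with an SE of 0.23, so that differences of that size were not detectable for this gene. An F-test of whether the left-right difference depended on the stage, which called 5.85% of all genes, gave limma adjusted p = 0.088 for Acat1, 0.13 for Oxct1 and 0.62 for Bdh1.

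**Figure D4:**
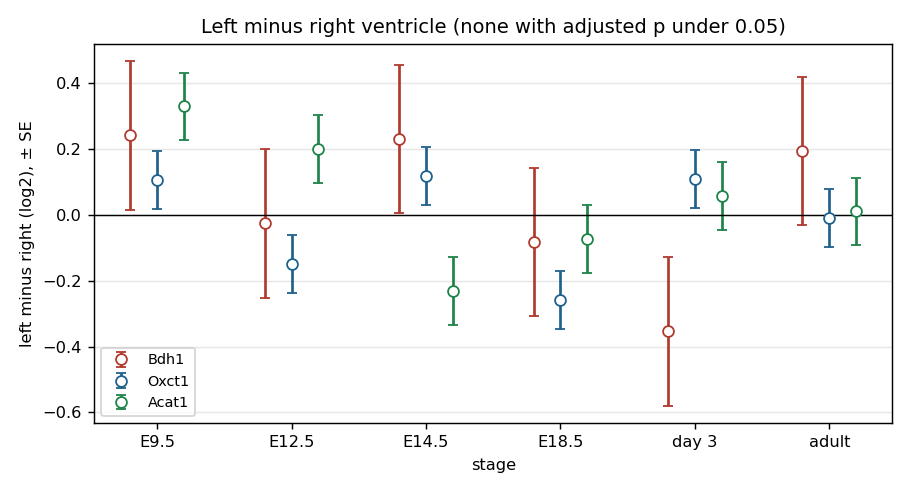
Left minus right ventricle of each gene (log2, ± SE of the limma fit on 3 arrays per group) at 6 stages; open symbols mark that none had an adjusted p under 0.05. The differences of Acat1 are 0.33 at E9.5 and -0.23 at E14.5.

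The neighbouring genes of ketone metabolism were described by lists, and the counts below are read against the shares of all genes called, which were 9.94% higher and 10.3% lower between day 3 and E18.5, 22.3% and 26.4% between the adult and day 3, and 41.6% and 32.9% between the adult and E9.5. Of 6 other enzymes of ketone bodies and acetoacetate, none was called between day 3 and E18.5, 3 rose and 1 fell between the adult and day 3, and 2 rose and 3 fell between the adult and E9.5 (median change 0.09, 0.30 and -0.12, against 0.01, 0.03 and 0.13 over all genes). Hmgcs1, the cytosolic HMG-CoA synthase of cholesterol synthesis, fell by 1.05 ± 0.07 in the adult relative to day 3 (limma adjusted p = 2.9e-12). Acss2, which makes acetyl-CoA from acetate in cytosol and nucleus, rose by 0.84 ± 0.10 (limma adjusted p = 1.4e-07). Bdh2, a cytosolic dehydrogenase, rose by 0.47 ± 0.14 and Hmgcll1, an HMG-CoA lyase outside mitochondria, by 0.55 ± 0.20 (limma adjusted p = 0.0081 and 0.023). Oxct2a, the testis form of the CoA transferase, was between 3.71 and 4.22 in all stage means, below the median of all values, and was called at none of the late steps.

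Among 7 genes of monocarboxylate transport, 3 rose and 1 fell between day 3 and E18.5, and 2 rose and none fell between the adult and day 3 (median change 0.24 and -0.04, against 0.01 and 0.03 over all genes). Slc16a1 (MCT1), the carrier that brings ketone bodies and lactate into heart cells, rose by 0.25 ± 0.07 at day 3 and by another 0.31 ± 0.07 in the adult (limma adjusted p = 0.017 and 0.0011). Bsg, the chaperone that takes MCT1 to the membrane, rose by 0.59 ± 0.09 and 0.32 ± 0.09 at the same steps. Slc16a3 (MCT4), the lactate exporter of glycolytic cells, fell by 1.59 ± 0.13 at day 3 relative to E18.5 (limma adjusted p = 3.8e-09) and reached 4.44 ± 0.01 in the adult, against 7.49 ± 0.07 at E9.5 (SD, n = 3). Slc16a6 (MCT7), which lets ketone bodies out of liver cells in zebrafish, rose by 0.70 ± 0.17 at day 3 (limma adjusted p = 0.0036), in a step in which the hepatocyte list fell. Emb, the chaperone of MCT2, was lower in the adult than at E9.5 by 2.88 ± 0.19 (limma adjusted p = 2.8e-12).

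Of 11 genes of ketone sensing and regulation, 2 rose and 2 fell between day 3 and E18.5, 5 rose and none fell between the adult and day 3, and 10 rose and none fell between the adult and E9.5 (median 1.26, against 0.13 over all genes). After the housekeeping scaling 10 rose between the adult and day 3, and the 2 that rose at day 3 became 1 or 4 under several other settings. Ppara, the fatty acid receptor that switches on lipid and ketone genes in liver and heart, fell by 0.57 ± 0.13 at day 3 and rose by 1.32 ± 0.13 in the adult (limma adjusted p = 0.0023 and 5.0e-09). Its partner Ppargc1a (PGC-1α) also fell at day 3, by 0.58 ± 0.15 (limma adjusted p = 0.0065), and its change in the adult, 0.21 ± 0.15, did not pass the test (limma adjusted p = 0.25). Mlycd, which removes the malonyl-CoA that blocks fatty acid entry into mitochondria, rose by 1.28 ± 0.09 at day 3 (limma adjusted p = 4.1e-10). Hcar2, the cell surface receptor of β-hydroxybutyrate, stood at 5.03 ± 0.05 in the adult and 4.62 ± 0.09 at day 3 (SD, n = 3), both below the median of all values, and rose by 0.42 ± 0.13 (limma adjusted p = 0.0085).

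Succinyl-CoA, the CoA donor of the OXCT1 reaction, comes from the citric acid cycle. Of 6 genes that make or use it there, 4 rose and none fell at day 3, 3 rose in the adult relative to day 3 (6 after the housekeeping scaling) and all 6 rose between E9.5 and the adult (median 0.21, 0.25 and 1.2, against 0.01, 0.03 and 0.13 over all genes). The 4 that rose at day 3 became 2 without the 6 arrays, 2 with the mean of all probe sets and 1 in right ventricles alone. Ogdh, a subunit of the complex that forms succinyl-CoA, rose by 0.82 ± 0.13 at day 3 and 0.72 ± 0.13 in the adult (limma adjusted p = 7.6e-05 and 5.7e-05). Between E9.5 and the adult it rose by 2.70, Dld, the dehydrogenase subunit shared by the 2-oxoacid complexes, by 1.41 and Sucla2, a subunit of the ATP-forming succinyl-CoA ligase, by 1.24. Suclg2, a subunit of the GTP-forming succinyl-CoA ligase, differed by -0.07 ± 0.07 at day 3 (limma adjusted p = 0.55) and rose by 0.57 ± 0.07 in the adult (limma adjusted p = 1.8e-07).

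Isoleucine breakdown is the other pathway in which ACAT1 acts. Of 12 other genes of that pathway none rose and 4 fell between day 3 and E18.5, and 10 rose and 1 fell between the adult and day 3 (median -0.17 and 0.81, against 0.01 and 0.03 over all genes, of which 9.94% rose and 10.3% fell in the first step and 22.3% and 26.4% in the second). The gene that fell was Bckdk, the kinase that inhibits the dehydrogenase (-0.18), and that call was lost under several other settings. The 4 that fell at day 3 were Bckdhb and Dbt (-0.70 and -0.72), subunits of the branched-chain ketoacid dehydrogenase, Mmut (-0.54), the methylmalonyl-CoA mutase, and Bcat2 (-0.43), the mitochondrial transaminase. Bckdk and these 4 genes were named after their values were seen. Bckdha, the catalytic subunit of the dehydrogenase, was 8.06-fold higher in the adult than at E9.5 (3.01 ± 0.09, limma adjusted p = 3.3e-19), followed by Acadsb (2.18 ± 0.07) and Mcee (2.08 ± 0.08).

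The other fuel pathways give the setting of these changes. Of 25 genes of fatty acid oxidation 23 rose and none fell between day 3 and E18.5 (median 0.81, against 0.01 over all genes), the step at which Bdh1 fell, and between the adult and day 3 7 rose and 7 fell (median 0.03), the step at which Bdh1 rose. After the housekeeping scaling 12 rose and 4 fell between the adult and day 3. Between E9.5 and the adult all 25 rose, with Cd36, the fatty acid carrier, at 5.65, Pdk4, the kinase that shuts pyruvate dehydrogenase, at 4.89 and Acadvl, the first enzyme of long-chain β-oxidation, at 3.84. All 17 genes of the citric acid cycle and all 35 of the electron transport chain also rose over that span (median 1.16 and 1.03, against 0.13 over all genes), led by Ogdh (2.70), Idh3g (1.83) and Idh2 (1.65) and by Cox8b (7.07), Cox6a2 (3.25) and Cox7a1 (3.05). Of 17 genes of glucose uptake, glycolysis and lactate, 3 rose and 8 fell at day 3. Between E9.5 and the adult 7 rose and 6 fell (41.2% and 35.3% of the list, near the 41.6% and 32.9% of all genes), among them the insulin-regulated glucose carrier Slc2a4 (4.71), the muscle phosphofructokinase Pfkm (3.61) and the fetal glucose carrier Slc2a1 (-4.02).

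**Figure D5:**
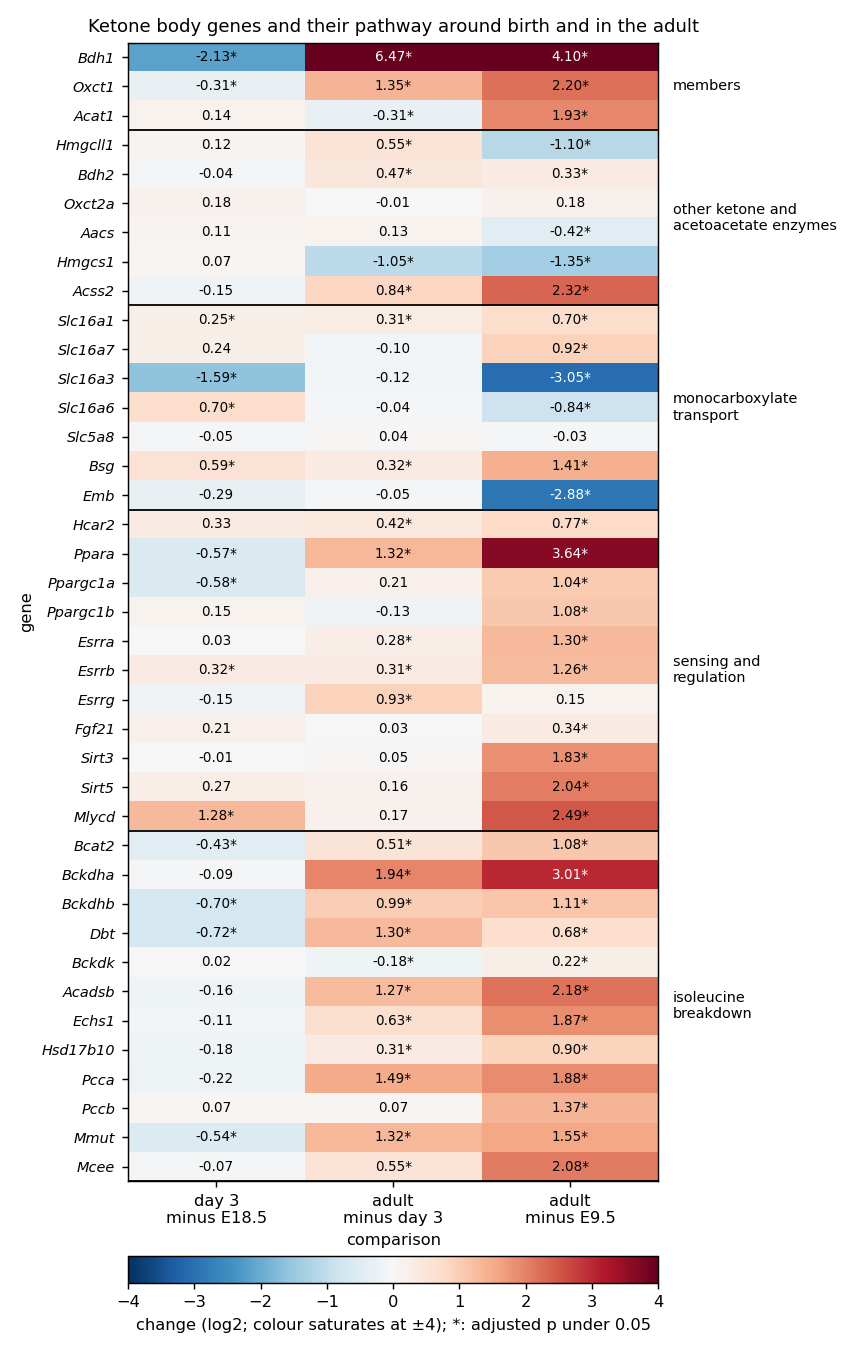
Log2 change of Bdh1, Oxct1, Acat1 and the genes of 4 neighbouring lists between day 3 and E18.5, the adult and day 3, and the adult and E9.5 (limma, 3 values per stage; later minus earlier stage), with asterisks at an adjusted p under 0.05. Bdh1 is the row with the deepest fall in the first column (-2.13) and the largest rise in the second (6.47).

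Lists of other cell types moved in the same steps. Between E12.5 and E9.5, where Oxct1 and Acat1 rose, 12 of 12 leukocyte genes rose (median 1.59), and of 12 fibroblast and matrix genes 10 rose and 1 fell (median 2.88), while 20.1% of all genes were higher and 18% lower. Of the called genes 52.7% were higher in that step, or 75.1% after the housekeeping scaling. Between the adult and E9.5 the same 12 leukocyte genes rose (median 3.64), and of the fibroblast and matrix genes 10 rose and 1 fell (median 1.93). Between the adult and day 3, 11 of 12 leukocyte genes rose (median 1.46), 5 of 9 genes of brown and white fat rose and 1 fell, and 6 of 12 fibroblast and matrix genes fell and 4 rose, while of 12 cardiomyocyte genes 3 rose and 1 fell. Of all genes 41.6% were higher and 32.9% lower between the adult and E9.5, and 22.3% and 26.4% between the adult and day 3. The part of these lists in the changes of Bdh1, Oxct1 and Acat1 was not tested. The mean of the 9 atrial genes was 7.37, 9.25 and 10.63 in adult right ventricle replicates 1, 2 and 3, where Bdh1 was 11.25, 11.91 and 12.46. In adult left ventricle replicates 1, 2 and 3 it was 7.37, 8.72 and 7.67, where Bdh1 was 12.13, 12.31 and 11.76. Whether atrial genes and Bdh1 go together was not tested.

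Finally, genes were ranked by the Pearson correlation of their 15 group means with those of each member, among 10783 genes whose group means spanned at least 1 log2 unit. The groups share stages, so these are descriptions. Most like Bdh1 were Kcna1 (0.89), Prune2 (0.89), Clasp2 (0.89), Adig (0.88) and Pdp2 (0.88). Most like Oxct1 were Nudt4 (0.96), Nfs1 (0.96), Msrb2 (0.95), Fgd4 (0.95) and Suclg2 (0.95). Most like Acat1 were Cabcoco1 (1.00), Cerk (1.00), Fxyd1 (0.99), Myoz2 (0.99) and Strip2 (0.99). The members themselves were less alike: the correlation was 0.85 between Oxct1 and Acat1, 0.49 between Bdh1 and Oxct1 and 0.05 between Bdh1 and Acat1.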

How the data were processed

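RNA of 45 samples was labelled as biotinylated cRNA and hybridised to Affymetrix mouse arrays. The authors deposited log2 values, 1 per probe set and array, which RMA produced (background correction, quantile normalization and summary of probes), per the submitters' processing notes; the RMA version is not given in the sources used here. Quantile normalization removes a change shared by most genes, and RMA compresses differences near background. Array medians were 5.35 to 5.47, 0 pairs of arrays were identical, and the number of arrays limited the precision.

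Of 45101 probe sets 64 were controls, 34945 had 1 gene symbol in the platform annotation, 932 had several and 9160 were unnamed. By Entrez ID 34741 matched RefSeq (GRCm38.p6 names). Of 18193 genes 9010 had more than 1 probe set, and the brightest on average stood for the gene. The groups were taken from the labels.

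All tests used limma 3.58.1 in R 4.3.3 and were two-sided (lmFit, eBayes; Benjamini-Hochberg over all genes, threshold 0.05). Left and right ventricle of a number were averaged for the stage fit, as they may stem from the same hearts (27 values, 9 stages, 18 residual degrees of freedom). The ventricles were compared on 45 arrays as 15 groups (30 residual degrees of freedom). Differences between 2 members per sample were added as rows and adjusted with all genes. Scripts were tested on simulated data. Tables and plots used pandas 2.3.3, NumPy 2.4.6 and Matplotlib 3.10.9 in Python 3.11.15.

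The members and gene lists were chosen with earlier results of these data known. The genes named were the 3 members, any measured gene of the lists of ketone enzymes, monocarboxylate transport and regulation, the 3 largest called changes between E9.5 and the adult in each other list, and the 5 genes most like each member; 5 genes of isoleucine breakdown outside this rule are marked in the text. Alternatives were a trended robust eBayes, a filter on dim genes, fits of only the groups compared, housekeeping scaling, single ventricles, other probe sets, stricter thresholds, each array left out, the 6 arrays with genes of another tissue left out, and the replicate number as a block. The main ventricle fit was unpaired at every stage, and the alternative paired left and right of 1 number at all 6 stages. Neither fit used the correlation of deviations of left and right over all genes. It was read as a sign of pairing where it was over 0.1 in all 3 pairs. This held at E12.5 alone (0.27, 0.32 and 0.37), from the data and not from the labels; at E9.5 and day 3 all 3 were above 0, the lowest at 0.07 and 0.03.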

Additional observations from a re-analysis of the deposited data

Results flagged for a closer look

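In 1424183_at, the probe set used, the left-right difference of Acat1 had opposite signs at different stages. From E9.5 to day 3 the arrays of the 2 ventricles did not overlap at any stage. Acat1 is listed here because it met this rule, no overlap with opposite signs at 2 stages. The values below are thus no separate support, and the share of all genes that meet the rule was not counted. In 1424182_at the arrays of the 2 ventricles overlapped at each of these stages, and in 1451271_a_at at E12.5, E18.5 and day 3. Left minus right in the set used was 0.33 at E9.5, 0.20 at E12.5, -0.23 at E14.5, -0.07 at E18.5 and 0.06 at day 3 (log2, 3 arrays per group). The difference at E9.5 exceeded that at E14.5 by 0.56 and that at E18.5 by 0.40. The difference at E12.5 exceeded that at E14.5 by 0.43 and that at E18.5 by 0.27. The differences at E14.5 and E18.5 were below that at day 3, by -0.29 and -0.13. The single pairs of stages were not tested. The limma F-test over the 6 stages gave an adjusted p of 0.088 (unadjusted p = 0.0083), so that the dependence on stage was not called. The mean of the hepatocyte list was 5.29 to 8.57 in left and 4.98 to 6.74 in right ventricles of E14.5. At E18.5 it was 6.67 to 9.91 in left and 4.65 to 5.91 in right ventricles. The part of this list in these differences was not tested.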

How the results depend on the processing

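Most results kept direction and side of the threshold. Leaving single arrays out aside, this held for 290 of 324 combinations of result and setting for the stage changes of the members. It held for 171 of 186 for left minus right and 153 of 162 for the differences between members. The fits without the 6 arrays are among these, and results that were not called and stayed so count as kept. The differences between members were not fitted with other probe sets or in single ventricles. The rise of Bdh1 between day 3 and the adult, its fall between E18.5 and day 3 and the rises of Oxct1 between E8.5, E9.5 and E12.5 and between day 3 and the adult were called under all settings run. Changes are log2, later minus earlier stage. Where calls were lost or gained, the cause was not tested, apart from settings that hold fewer genes or samples. The SE of single genes and 3 values per stage limit what could be called. Detection calls were not used, so whether Bdh1 at day 3 lay above background is not known.

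A trended robust eBayes called left minus right of Acat1 at E9.5 (0.33). The filter on dim genes called Bdh1 between E12.5 and E9.5 (0.37) and the difference Bdh1 minus Oxct1 there (-0.30). Fits of only the groups compared called Bdh1 at E8.5 (-0.31) and E12.5 (0.37), Bdh1 minus Acat1 at E9.5 (-0.44), Bdh1 minus Oxct1 at E12.5 (-0.30) and Oxct1 minus Acat1 between E9.5 and the adult (0.26). Housekeeping scaling called Bdh1 at E12.5 (0.50) and Bdh1 minus Oxct1 there (-0.30), lost the adult fall of Acat1 (-0.11) and turned its adult left minus right (-0.0088). It moved all changes by 0.11 at E7.5, 0.14 at E12.5, 0.20 in the adult relative to day 3 and 0.37 relative to E9.5, and the share of higher calls at E7.5 became 64.0%, against 49.1%, and at E12.5 75.1%, against 52.7%. With the replicate block Bdh1 at E12.5 (0.37) and Bdh1 minus Oxct1 there (-0.30) were called, and the block changed no other call of the members.

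Without the 6 arrays with genes of another tissue, Bdh1 at E12.5 (0.37), Acat1 at E14.5 (0.23), left minus right of Acat1 at E9.5 (0.33), Bdh1 minus Acat1 at E9.5 (-0.51), Bdh1 minus Oxct1 at E12.5 (-0.30) and Oxct1 minus Acat1 between E9.5 and the adult (0.29) were called. Signs turned for Acat1 at E7.5 (-0.16) and for left minus right of Bdh1 at E14.5 (-0.11) and Oxct1 in the adult (0.0097). In left ventricles alone Bdh1 at E14.5 (-0.33) and Oxct1 at day 3 (-0.12) lost the call and Acat1 at E14.5 turned (-0.035). In right ventricles alone Bdh1 at E12.5 (0.50) and Acat1 at E14.5 (0.40) were called, and Oxct1 at E14.5 (-0.13) and Bdh1 at E18.5 (0.010) turned.

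With the mean of all probe sets, Bdh1 at E12.5 (0.40), Acat1 at E14.5 (0.29) and Acat1 at day 3 (0.42) were called and Oxct1 at day 3 was not (-0.12). Signs turned for Oxct1 at E14.5 (-0.081) and for left minus right of Bdh1 at E12.5 (0.076) and of Oxct1 at E14.5 (-0.0003) and in the adult (0.018). The probe set 1426959_at of Bdh1 was called at E12.5 (0.43) and not at E14.5 (-0.38), and turned at E18.5 (0.12) and in left minus right at E12.5 (0.18) and day 3 (0.075). The group means of this set before the adult were 3.41 to 5.46, near or below the median of all values, 5.41. Of Oxct1, 1428140_at turned at E14.5 (-0.084) and in left minus right at E14.5 (-0.19) and was called in left minus right at E18.5 (-0.38). The set 1436750_a_at turned at E14.5 (-0.15) and day 3 (0.22). The set 1455804_x_at turned at E14.5 (-0.098), at day 3 (0.024) and in left minus right at E9.5 (-0.057), E14.5 (-0.012) and in the adult (0.10). Of Acat1, 1451271_a_at turned at E7.5 (-0.18) and was called at day 3 (0.33), and 1424182_at was called at E7.5 (0.38), E14.5 (0.49) and day 3 (0.79).

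Leaving out each array in turn gave -0.16 to 0.17 for Acat1 at E7.5, 0.30 to 0.44 for Bdh1 at E12.5, -0.59 to -0.33 for Bdh1 and -0.028 to 0.039 for Oxct1 at E14.5. For Bdh1 minus Oxct1 it gave 0.29 to 0.35 at E8.5, -0.35 to -0.25 at E12.5 and -0.59 to -0.35 at E14.5. For Bdh1 minus Acat1 it gave -0.51 to -0.39 at E9.5, -0.84 to -0.45 at E14.5 and -0.77 to -0.39 at E18.5. For Oxct1 minus Acat1 it gave -0.024 to 0.12 at E18.5 and 0.21 to 0.32 between E9.5 and the adult. Left minus right ran from 0.27 to 0.42 for Acat1 at E9.5 (called without right replicate 2), -0.016 to 0.23 for Oxct1 at E9.5, -0.046 to 0.0095 for Bdh1 at E12.5, -0.086 to 0.46 for Bdh1 at E14.5 and -0.31 to -0.22 for Oxct1 at E18.5 (called without left replicate 3). In the adult it ran from -0.063 to 0.10 for Acat1, -0.12 to 0.49 for Bdh1 and -0.052 to 0.047 for Oxct1, and as a mean of 6 stages from -0.018 to 0.083 for Bdh1 and -0.034 to 0.0065 for Oxct1.

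The number of genes called, left minus right, was 576 at E12.5, 509 at E14.5, 135 at E18.5, 3 at day 3 and 0 in the adult in fits of only the groups compared. It was 247 at E14.5, 328 at E18.5 and 64 in the adult without the 6 arrays, and 2 at day 3 and 7 in the adult with the block. Leaving out each array gave 357 to 745 at E9.5, 129 to 290 at E12.5, 445 to 2148 at E14.5, 165 to 2754 at E18.5, 1 to 3 at day 3 and 3 to 98 in the adult. At an adjusted p under 0.01 it was 342, 138, 523 and 279 from E9.5 to E18.5 and 253 in the mean of 6 stages. With at least a 2-fold difference it was 139, 86, 117 and 149, 0 in the adult and 8 in the mean. Between E14.5 and E12.5 3695 genes were called with 45 arrays as 15 groups, 1175 in left ventricles and 1239 at 0.01, and at 0.01 3249 at E9.5 and 2145 at day 3. With at least a 2-fold change 2119, 1919, 528, 909, 188, 506, 285 and 1829 genes were called at the 8 steps in order, and 5163 between E9.5 and the adult.

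Counts of list genes that rose at day 3 were 4, 1, 4 and 1 for regulation (groups compared, housekeeping, 45 arrays, mean of probe sets), 5 and 2 for the citric acid cycle and 2 and 1 for succinyl-CoA (without the 6 arrays, right ventricles), 2 for succinyl-CoA (mean of probe sets) and 21 for electron transport (45 arrays). In the adult relative to day 3, housekeeping scaling gave 12 for fatty acid oxidation, 14 for the citric acid cycle, 32 for electron transport, 11 for glycolysis, 10 for regulation and 6 for succinyl-CoA. Right ventricles gave 3 for regulation, and the mean of probe sets 8 for the citric acid cycle. Of other ketone enzymes 1 rose between E9.5 and the adult without the 6 arrays and in left ventricles. Counts that fell in the adult relative to day 3 were 4, 0, 0, 2 and 0 for fatty acid oxidation, citric acid cycle, electron transport, glycolysis and isoleucine under housekeeping scaling, 1 for the citric acid cycle in fits of the groups compared and in left ventricles, and 0 for isoleucine in fits of the groups compared, with the block, in left ventricles and with the mean of probe sets. At day 3 the falls were 7 for isoleucine (45 arrays) and in left ventricles 2 for transport, 5 for glycolysis and 0 for regulation. Leaving out each array gave 1 to 3 rises of other ketone enzymes between E9.5 and the adult, at day 3 5 to 10 rises in the citric acid cycle, 1 to 3 in regulation and 5 to 8 falls in glycolysis, and in the adult 3 to 6 rises in regulation and 1 to 3 and 0 to 1 falls in the citric acid cycle and isoleucine.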
